A study of Mus musculus with 75 samples.

Results

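The 8 genes Stra6, Rdh10, Dhrs3, Aldh1a1, Aldh1a2, Aldh1a3, Crabp1 and Crabp2 carry vitamin A into cells, turn it into retinoic acid (RA) and bind the product. They were chosen by name for these roles, with earlier results of these data known. All 8 were found among the 52535 entries of the receptor knockout table, the 52535 entries of the receptor overexpression table and the 52636 entries of the enhancer deletion table. The tables hold RNA-seq counts per gene for 23 libraries of the mouse embryonic stem cell line E14. All cells had left LIF and 2i medium, which holds them undifferentiated, and had received 2 µM RA for 24 h, controls included, so no library shows the genes without added RA. The receptor knockout table compares Rarα-KO, Rxrα-KO and the combined RARX-DKO with WT-RARX (n = 2 each), and the overexpression table compares Rarα-OE and Rxrα-OE with the control V-OE (n = 2 each). The enhancer table compares cells lacking the Cyp26-E1 or Cyp26-E2 enhancer with WT-Cyp26 (n = 3 each). The labels do not say whether a mutant line is 1 clone, and give no construct for overexpression. Replicates are called biological without a statement that they were separate cultures, so p-values measure only the spread between these libraries.

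Stra6 is a membrane receptor that takes up retinol from its carrier protein in blood. Rdh10 oxidises retinol to retinal, Dhrs3 reduces retinal back to retinol, and the Aldh1a enzymes oxidise retinal to RA in a step that is not reversed. Crabp1 and Crabp2 bind RA in the cytoplasm: Crabp2 can pass it to nuclear receptors, and Crabp1 is linked to its breakdown by Cyp26 enzymes. RA acts through heterodimers of RAR and RXR receptors, and in mouse embryos and stem cells several of these genes, Stra6, Dhrs3 and Crabp2 among them, are themselves known RA targets.

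Libraries held 7408691 to 13052102 counts in the knockout table, 7835519 to 11453063 in the overexpression table and 28397794 to 33601996 in the enhancer table. Levels are given as CPM, counts scaled to a common library size. Rara stood at 4.86 ± 0.70 CPM in Rarα-KO and 6.05 ± 0.68 CPM in RARX-DKO, against 104 ± 6.03 CPM in WT-RARX (SD, n = 2). Rxra kept 17.2 ± 1.57 CPM in Rxrα-KO and 20.6 ± 9.88 CPM in RARX-DKO, against 42.1 ± 5.49 CPM in WT-RARX (SD, n = 2), and its fall passed in Rxrα-KO (log2 -1.29, edgeR adjusted p = 0.0264) but not in RARX-DKO (log2 -1.04, edgeR adjusted p = 0.0654). In the overexpression table Rara averaged 108 ± 4.58 CPM in Rarα-OE against 52.0 ± 0.59 CPM in V-OE, and Rxra averaged 203 ± 1.58 CPM in Rxrα-OE against 44.3 ± 1.93 CPM in V-OE (SD, n = 2). Columns of the enhancer mutants carry short codes, and which code is which enhancer was taken from similar codes of other files of the series, a match that is not certain, and the RNA titles of Cyp26-E2 lack the word KO. Under this match Cyp26a1, an RA-degrading hydroxylase, averaged 49.5 ± 13.7 CPM in Cyp26-E1-KO and 380.3 ± 15.2 CPM in Cyp26-E2-KO, against 377 ± 8.80 CPM in WT-Cyp26 (SD, n = 3). Replicate 2 of Cyp26-E1-KO stood apart, with a variance against its fellow replicates of 45.4 and 51.0 times counting variance, where the other pairs of that table gave 5.55 to 9.58 times. Pairs in the knockout table differed by 7.98 to 14.2 times counting variance, and those in the overexpression table by 1.90 to 2.28 times. Median gene shifts of the chromosomes that carry the 8 genes lay between -0.06 and 0.07 on the log2 scale in every library, relative to the controls of its table. Medians of the genes within 2 Mb of a member ranged more widely, from -0.30 to 0.44 in the knockout table, -1.07 to 0.38 in the overexpression table and -0.25 to 0.43 in the enhancer table.

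Levels between genes were compared in the control libraries as CPM per kilobase of exon. Dhrs3 had 14.3 ± 0.30 CPM per kb in WT-RARX, 10.7 ± 0.99 in V-OE and 17.7 ± 0.59 in WT-Cyp26, and it led the genes in the last 2 groups. Crabp1 led in WT-RARX with 15.9 ± 1.66 CPM per kb, and it had 9.78 ± 2.14 in V-OE and 5.92 ± 1.47 in WT-Cyp26. Stra6 had 2.80 to 11.1 CPM per kb and Crabp2 1.92 to 8.45 over the control groups. Both stood below Crabp1 in WT-RARX and V-OE and above it in WT-Cyp26. Rdh10 had the steadiest level, at 1.72, 1.86 and 1.94 CPM per kb in WT-RARX, V-OE and WT-Cyp26. Tables were made and scaled separately, so levels set across them are a description only. Of the RA-forming enzymes, Aldh1a2, the main one of the early mouse embryo, had 0.73 CPM per kb in WT-RARX, 0.28 in V-OE and 1.50 in WT-Cyp26. Aldh1a3 stayed at 0.09 to 0.12 CPM per kb in the 3 control groups. Aldh1a1 was near the limit of detection: its libraries held 0 to 2 reads in the knockout table, 2 or 3 reads in the overexpression table and 0 to 10 reads in the enhancer table. A count of 0 there allows up to 3 reads by counting error alone. Aldh1a1 therefore passed the filter on low counts in none of the 3 tables and Aldh1a3 did not pass it in the knockout table, which leaves 6 tested genes there and 7 in each of the other tables.

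**Figure D1:**
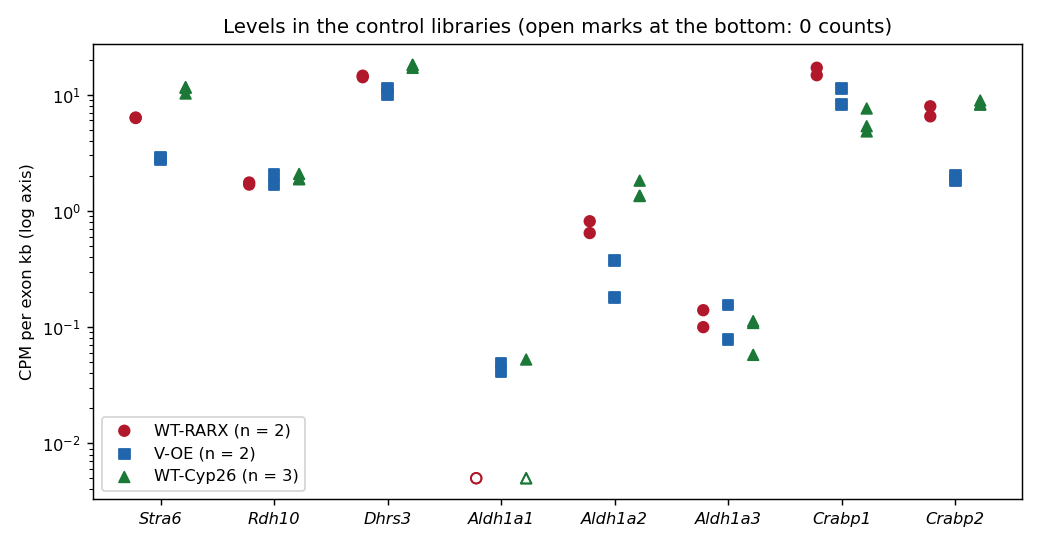
Levels of the 8 genes in the control libraries, as CPM per kilobase of exon on a log axis, with 1 mark per library (WT-RARX and V-OE, n = 2; WT-Cyp26, n = 3). Dhrs3 or Crabp1 sits highest in each group, Crabp1 lies below Stra6 and Crabp2 in WT-Cyp26, the Aldh1a genes sit lowest, and open marks at the bottom stand for libraries with 0 reads of Aldh1a1.

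On mm10, with GENCODE vM21 positions, 3 of the genes lie on chromosome 9: Crabp1 at chr9:54764748-54773110, Stra6 at chr9:58063788-58153996 and Aldh1a2 at chr9:71215789-71296243, all on the plus strand. The others lie apart, Rdh10 at chr1:16105774-16133734 (plus), Crabp2 at chr3:87948666-87953376 (plus), Dhrs3 at chr4:144892827-144928209 (plus), Aldh1a3 at chr7:66390890-66427517 (minus) and Aldh1a1 at chr19:20492715-20643465 (plus). The span of Stra6 overlaps Ccdc33 on the minus strand (chr9:58028677-58118823), which held 5 to 60 reads per library, and the strand setting of the counting is not given in the sources used here. The bases before the start of 3 genes that rose under both receptor overexpressions are shown, as they bear on whether these starts hold the receptor's own motif. They are RefSeq windows on GRCm38.p6, 250 bases each on the plus strand, for Dhrs3 (chr4:144892577-144892826), Crabp1 (chr9:54764498-54764747) and Stra6 (chr9:58128838-58129087), with capitals reserved for the receptor hexamer AGGTCA, its variant GGGTCA, and the further variants AGTTCA as well as GGTTCA on either strand.
Dhrs3: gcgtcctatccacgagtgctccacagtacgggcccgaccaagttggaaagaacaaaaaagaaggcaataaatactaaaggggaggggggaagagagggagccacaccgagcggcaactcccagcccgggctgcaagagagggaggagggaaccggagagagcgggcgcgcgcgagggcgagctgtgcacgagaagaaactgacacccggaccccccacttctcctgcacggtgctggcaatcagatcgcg
Crabp1: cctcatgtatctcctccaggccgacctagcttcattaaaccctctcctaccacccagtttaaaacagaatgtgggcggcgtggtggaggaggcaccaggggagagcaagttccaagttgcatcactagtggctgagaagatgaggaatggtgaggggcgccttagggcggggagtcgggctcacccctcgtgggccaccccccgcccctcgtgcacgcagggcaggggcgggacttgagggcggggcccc
Stra6: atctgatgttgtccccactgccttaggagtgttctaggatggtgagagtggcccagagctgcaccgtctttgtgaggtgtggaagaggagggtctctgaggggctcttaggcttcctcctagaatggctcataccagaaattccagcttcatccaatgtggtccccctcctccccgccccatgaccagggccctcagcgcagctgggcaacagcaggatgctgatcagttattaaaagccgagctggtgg
The stretch of Stra6 lies inside the gene's GENCODE span, which starts further upstream. None of the 3 stretches holds a capital, so these letters are not in them. RefSeq windows of 250 bases before and 50 after a start were found for 5 of the 8 genes (Stra6, Dhrs3, Aldh1a1, Aldh1a2 and Crabp1), in 11 windows. Direct repeats of the hexamers with 1, 2 or 5 bases between them were in 0 of the 11 windows, against 0.588% of all 32851 windows. At least 1 hexamer was in 2 of the 11, an alternative start each of Aldh1a1 and Stra6, against 43.7% of all windows. Some windows of Dhrs3 and of Stra6 overlap each other. Counted by gene, 2 of 5 (40.0%) held a hexamer, against 46.9% of all genes with a window. Composition differed widely: the 250 bases before the start of Aldh1a2 were 77.6% G or C with 40 CpG dinucleotides, those shown for Dhrs3 61.6% with 19, for Crabp1 63.6% with 12 and for Stra6 56.4% with 4, and the medians over all windows were 52.4% and 6.

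Most of these genes rose under overexpression of either receptor, and 5 of the 7 tested stood higher in Rxrα-OE than in Rarα-OE. Against V-OE, 6 of the 7 tested genes passed the test in Rxrα-OE and 5 of 7 in Rarα-OE, all with higher levels. Over all genes tested, 60.2% passed in Rxrα-OE and 28.6% in Rarα-OE, and 30.9% and 14.7% passed with a higher level. The median log2 fold change over the tested members was 1.60 in Rxrα-OE and 0.97 in Rarα-OE, against 0.00 over all tested genes in each comparison.

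Stra6 stood at 37.6 and 34.7 CPM in Rxrα-OE and at 27.2 and 28.7 CPM in Rarα-OE, against 15.9 and 16.7 CPM in V-OE. The 3 groups do not overlap. Its log2 fold change against V-OE was 1.14 ± 0.11 (SE; edgeR adjusted p = 1.07e-12) for Rxrα-OE and 0.77 ± 0.12 (edgeR adjusted p = 7.37e-07) for Rarα-OE. Rdh10, the enzyme of the reversible retinol step, had 14.7 and 14.9 CPM in Rxrα-OE and 8.44 and 7.30 CPM in Rarα-OE, against 8.58 and 6.93 CPM in V-OE. Only the Rxrα-OE libraries stand above the control, while those of Rarα-OE overlap it. The log2 fold change was 0.94 ± 0.18 in Rxrα-OE (edgeR adjusted p = 9.90e-06) and 0.04 ± 0.20 in Rarα-OE (95% interval -0.36 to 0.44, edgeR adjusted p = 0.915). Dhrs3, which works in the opposite direction to Rdh10, had 103 and 105 CPM in Rxrα-OE and 46.2 and 46.8 CPM in Rarα-OE, against 33.5 and 29.4 CPM in V-OE. That is 3.32-fold higher in Rxrα-OE (log2 1.73 ± 0.08, edgeR adjusted p = 3.64e-26) and 1.48-fold higher in Rarα-OE (log2 0.57 ± 0.09, edgeR adjusted p = 7.39e-07). The 39 tested genes within 2 Mb of Dhrs3 had medians of -1.07 to -0.73 in the Rxrα-OE libraries and -0.56 to -0.55 in those of Rarα-OE, against -0.04 to 0.04 in V-OE (log2, relative to V-OE), and their part in the result was not tested.

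Retinal oxidation rested on few reads. Aldh1a2 had 1.74 and 2.62 CPM in Rxrα-OE and 1.81 and 1.28 CPM in Rarα-OE, against 0.85 and 0.41 CPM in V-OE, from 4 to 31 reads a library. Both mutants lie above V-OE, but the call was made in Rxrα-OE (log2 1.84 ± 0.52, edgeR adjusted p = 0.00213) and not in Rarα-OE (log2 1.34 ± 0.57, edgeR adjusted p = 0.0698). Without Rxrα-OE replicate 2 the Rxrα-OE value was 1.49 (edgeR adjusted p = 0.0768), without V-OE replicate 2 it was 1.37 (0.0665), and DESeq2 gave an adjusted p of 0.0613. Aldh1a3 had 1.04 and 0.85 CPM in Rxrα-OE and 1.71 and 1.67 CPM in Rarα-OE, against 0.36 and 0.71 CPM in V-OE, from 3 to 17 reads a library. Here Rarα-OE was the group that passed (log2 1.59 ± 0.58, edgeR adjusted p = 0.0335), and Rxrα-OE did not (log2 0.74 ± 0.64, edgeR adjusted p = 0.321). Leaving out any of the 4 libraries of Rarα-OE and V-OE ended that call: the value was 1.58 (edgeR adjusted p = 0.160) without Rarα-OE replicate 1, 1.61 (0.118) without Rarα-OE replicate 2, 1.23 (0.248) without V-OE replicate 1 and 2.18 (0.0682) without V-OE replicate 2. With no filter on low counts its edgeR adjusted p was 0.0587. Aldh1a1 held 3 reads in each Rxrα-OE library and 2 in each library of Rarα-OE and V-OE.

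Both RA-binding proteins rose in both groups. Crabp2 had 29.8 and 28.5 CPM in Rxrα-OE and 6.83 and 6.41 CPM in Rarα-OE, against 2.42 and 2.65 CPM in V-OE. It was 11.4-fold higher in Rxrα-OE (log2 3.51 ± 0.19, edgeR adjusted p = 8.55e-23) and 2.60-fold higher in Rarα-OE (log2 1.38 ± 0.24, edgeR adjusted p = 6.32e-06). Among the 8 genes this was the largest fold change in any comparison with all libraries in the fit. Crabp1 had 22.8 and 24.2 CPM in Rxrα-OE and 14.3 and 16.3 CPM in Rarα-OE, against 9.06 and 6.63 CPM in V-OE. Its 3 groups do not overlap either, with log2 fold changes of 1.60 ± 0.16 (edgeR adjusted p = 1.23e-12) and 0.97 ± 0.17 (edgeR adjusted p = 1.02e-05) for Rxrα-OE and Rarα-OE.

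**Figure D2:**
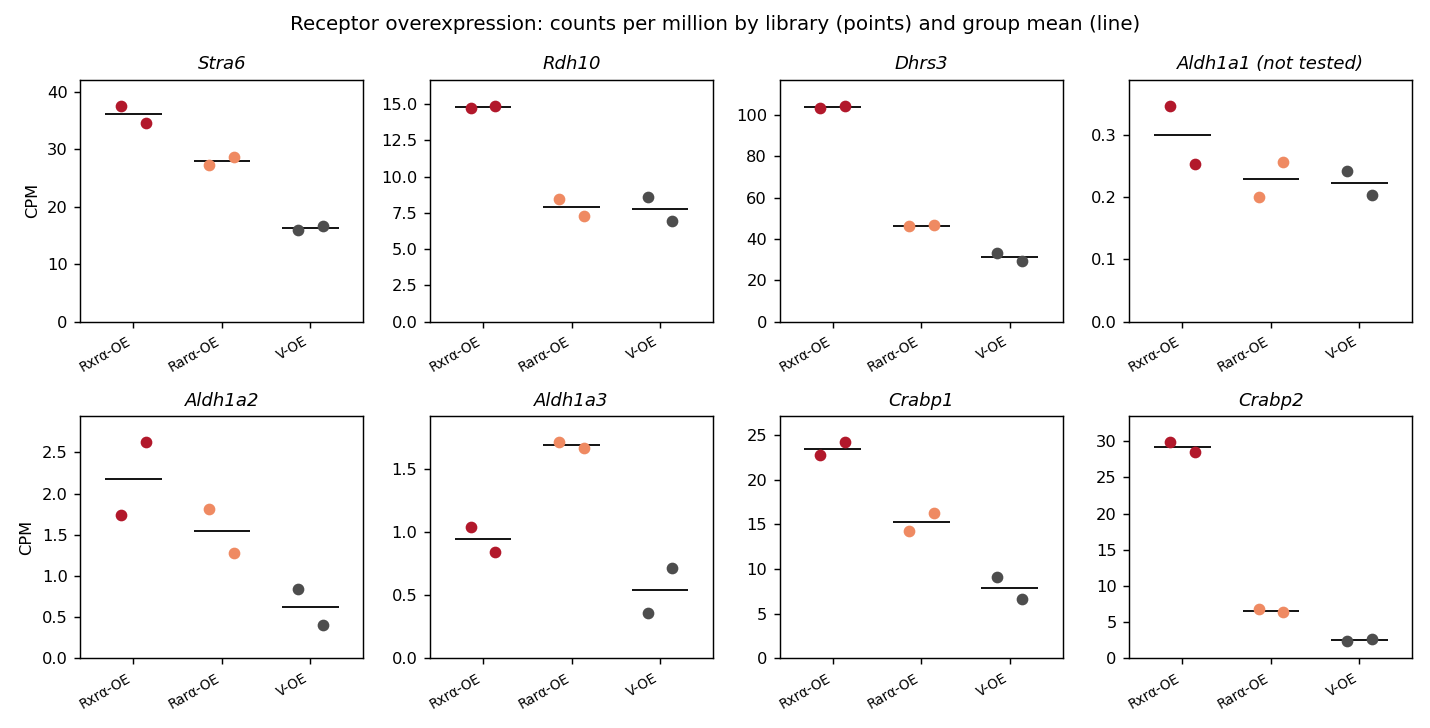
CPM of the 8 genes in each library of the overexpression table (points, n = 2 per group) with the group mean (line), linear axes that start at 0. Stra6, Dhrs3, Crabp1 and Crabp2 step down from Rxrα-OE over Rarα-OE to V-OE, Rdh10 is high in Rxrα-OE alone, and Aldh1a1 was not tested.

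Set directly against Rarα-OE, Rxrα-OE had higher levels of 5 of 7 tested members, where 47.2% of all genes passed the test and 23.8% passed with a higher level. Crabp2 differed most (log2 2.13 ± 0.16), followed by Dhrs3 (1.16 ± 0.08), Rdh10 (0.90 ± 0.18), Crabp1 (0.63 ± 0.15) and Stra6 (0.37 ± 0.11, edgeR adjusted p = 0.00338). The difference in Stra6 lost its call without Rxrα-OE replicate 1 (log2 0.31, edgeR adjusted p = 0.0678) and under DESeq2 (adjusted p = 0.0914). Aldh1a2 (0.50 ± 0.44) and Aldh1a3 (-0.85 ± 0.51) did not pass, with 95% intervals of -0.38 to 1.38 and -1.88 to 0.18. The members' median was 0.63, against 0.00 over all tested genes.

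Of 49 other retinoid genes listed by function, 32 were tested in this table. In Rxrα-OE 20 were higher and 6 lower than in V-OE, and in Rarα-OE 13 were higher and 3 lower, with medians of 0.54 and 0.27. Over all genes tested, 30.9% passed higher and 29.3% lower in Rxrα-OE, and 14.7% and 13.9% in Rarα-OE. The list includes Rara and Rxra, the overexpressed genes themselves. Large changes in Rxrα-OE were in the RA hydroxylase Cyp26b1 (log2 4.22), the retinal reductase Rdh12 (3.36) and the RA target Hoxb1 (3.25). In Rarα-OE the largest were in Hoxb1 (1.91) and the hydroxylases Cyp26c1 (1.65), Cyp26a1 (1.53) and Cyp26b1 (1.43). Between the mutants 16 were higher and 6 lower in Rxrα-OE than in Rarα-OE, among them Cyp26b1 (2.80), Rdh12 (2.66) and Rxra itself (2.21).

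Cell type markers moved with these groups. The summed level of 11 extraembryonic endoderm markers was 1765 to 1766 CPM in Rxrα-OE and 1369 to 1373 CPM in Rarα-OE, against 513 to 545 CPM in V-OE, and that of 7 trophoblast markers was 658 to 687, 567 to 616 and 96.1 to 97.4 CPM in the same order. Of these, 11 and 6 to 7 were at 1 CPM or more in Rxrα-OE, against 10 and 4 in V-OE. The trophoblast markers of highest level were Krt8 (56.5 to 349 CPM over the 6 libraries) and Krt18 (14.3 to 259 CPM). Tfap2c ranged from 13.0 to 53.6 CPM, Cdx2 from 0.41 to 17.9 CPM and Krt7 from 0.51 to 15.3 CPM. Gata3 ranged only from 7.25 to 9.69 CPM and Elf5 from 0 to 1.27 CPM. The sum of 8 embryonic stem cell markers was 2749 to 2771 CPM in Rxrα-OE and 7208 to 7219 CPM in Rarα-OE, against 8172 to 8326 CPM in V-OE. Their part in the changes of the retinoid genes was not tested, and in bulk RNA a change in the number of cells of a type cannot be told apart from a change in RNA per cell. Mesoderm markers summed to 15.4 to 15.7 CPM in Rxrα-OE, 26.3 to 28.6 CPM in Rarα-OE and 22.4 to 22.5 CPM in V-OE. Neuroectoderm markers summed to 27.8 to 28.2, 41.4 to 45.6 and 75.1 to 83.8 CPM in the same order, so both mutants were below V-OE. Among them Tubb3 ranged from 1.39 to 58.1 CPM over these libraries. Fibroblast markers summed to 129 to 133, 59.5 to 63.4 and 33.9 to 34.2 CPM, with Postn and Lum at 0 in all 6 libraries. Most of that sum was Pdgfrb, which ranged from 24.7 to 125 CPM over these libraries. Col1a1 ranged from 2.42 to 6.93 CPM and Thy1 from 1.39 to 4.59 CPM.

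In the knockouts at most 1 of these genes passed in each comparison. Replicate pairs of this table differed by 7.98 to 14.2 times counting variance, against 1.90 to 2.28 times in the overexpression table. Numbers of calls therefore do not compare the size of the response between these tables. Stra6 was lower in Rxrα-KO and Dhrs3 lower in RARX-DKO, each the only member of 6 tested that passed in its comparison with WT-RARX, and in Rarα-KO 0 of 6 passed, with 2 at an unadjusted p under 0.05 and 0 under DESeq2. Over all genes tested 2.47% passed in Rxrα-KO, 2.24% in RARX-DKO and 0.645% in Rarα-KO, and in Rarα-KO 1805 of 16445 were at an unadjusted p under 0.05. The members' median log2 fold changes were -0.47 in Rxrα-KO, -0.76 in RARX-DKO and -0.35 in Rarα-KO, against -0.01, 0.01 and 0.00 over all tested genes.

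Stra6 had 21.0 and 24.7 CPM in RARX-DKO, 10.7 and 19.3 CPM in Rxrα-KO and 27.2 and 30.7 CPM in Rarα-KO, against 37.0 and 36.7 CPM in WT-RARX. Every mutant library lies below both control libraries, though how many of all genes lie apart likewise was not counted. The fall passed in Rxrα-KO, by 1.30 ± 0.24 on the log2 scale (2.46-fold lower, edgeR adjusted p = 0.0157). It did not in RARX-DKO (log2 -0.69 ± 0.23, edgeR adjusted p = 0.165) or Rarα-KO (log2 -0.35 ± 0.23, edgeR adjusted p = 0.626). The Rxrα-KO call was lost without WT-RARX replicate 1 (log2 -1.28, edgeR adjusted p = 0.118), without WT-RARX replicate 2 (-1.30, 0.207) and without Rxrα-KO replicate 1, the lowest library (-0.93, 0.0513). Rdh10 passed in no comparison of the table, with 7.16 and 6.93 CPM in RARX-DKO, 6.77 and 9.02 CPM in Rxrα-KO and 8.35 and 7.20 CPM in Rarα-KO, against 7.00 and 7.30 CPM in WT-RARX. All its groups overlap WT-RARX, and the 95% interval of the log2 fold change ran from -0.65 to 0.61 in RARX-DKO, from -0.49 to 0.77 in Rxrα-KO and from -0.50 to 0.74 in Rarα-KO.

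Dhrs3 had 22.4 and 14.5 CPM in RARX-DKO, 25.4 and 31.8 CPM in Rxrα-KO and 24.8 and 33.4 CPM in Rarα-KO, against 41.4 and 42.6 CPM in WT-RARX. Again no mutant library reaches the control, and the RARX-DKO libraries lie below those of either other mutant. Dhrs3 was 2.26-fold lower in RARX-DKO (95% interval of the log2 fold change -1.67 to -0.69, edgeR adjusted p = 0.0163), and the values of Rxrα-KO (-0.56 ± 0.22, edgeR adjusted p = 0.228) and Rarα-KO (-0.53 ± 0.22, edgeR adjusted p = 0.386) did not pass. Without WT-RARX replicate 1 the RARX-DKO value was -1.19 (edgeR adjusted p = 0.138), without WT-RARX replicate 2 it was -1.15 (0.199) and without RARX-DKO replicate 2 it was -0.90 (0.0710), so 3 of 4 left-out libraries ended the call. Aldh1a2 held 5 to 20 reads a library, at 1.14 and 0.68 CPM in RARX-DKO, 1.82 and 2.03 CPM in Rxrα-KO and 1.82 and 0.76 CPM in Rarα-KO, against 1.84 and 1.46 CPM in WT-RARX. At this depth its log2 fold changes of -0.83 ± 0.58, 0.23 ± 0.53 and -0.34 ± 0.54 in RARX-DKO, Rxrα-KO and Rarα-KO could not be told from 0. Aldh1a3 (1 to 7 reads) and Aldh1a1 (0 to 2 reads) were not tested.

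For both binding proteins the RARX-DKO replicates lay far apart, and for Crabp1 those of Rarα-KO did too. Crabp1 had 29.8 and 9.25 CPM in RARX-DKO, 4.69 and 6.86 CPM in Rxrα-KO and 9.84 and 22.8 CPM in Rarα-KO, against 11.8 and 13.7 CPM in WT-RARX. Crabp2 had 0.795 and 7.07 CPM in RARX-DKO, 6.77 and 7.75 CPM in Rxrα-KO and 3.74 and 2.62 CPM in Rarα-KO, against 10.5 and 8.60 CPM in WT-RARX. RARX-DKO replicate 1 was thus the highest library of the table for Crabp1 and the lowest for Crabp2. Crabp2 lay below WT-RARX in all 6 mutant libraries, yet no comparison passed: log2 -1.31 ± 0.65 in RARX-DKO (edgeR adjusted p = 0.404), -0.39 ± 0.61 in Rxrα-KO (0.816) and -1.58 ± 0.65 in Rarα-KO (0.401). Without RARX-DKO replicate 2 the RARX-DKO value was -3.55 (edgeR adjusted p = 0.00312), and with only WT-RARX and Rarα-KO in the fit the Rarα-KO value was -1.56 (edgeR adjusted p = 0.0105). For Crabp1 the values were 0.62 ± 0.54 in RARX-DKO, -1.14 ± 0.59 in Rxrα-KO and 0.36 ± 0.54 in Rarα-KO, with edgeR adjusted p-values of 0.682, 0.395 and 0.863.

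**Figure D3:**
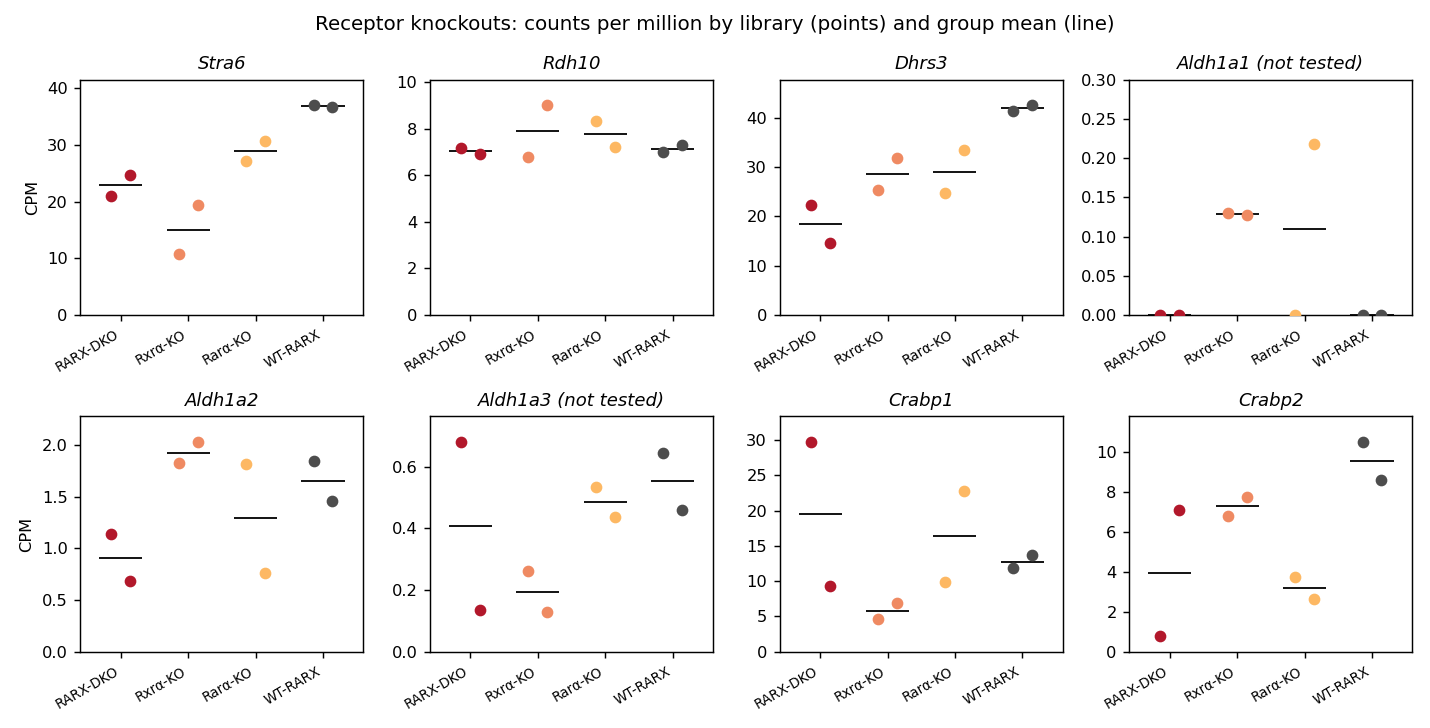
CPM of the 8 genes in each library of the knockout table (points, n = 2 per group) with the group mean (line), linear axes that start at 0. Every mutant library of Stra6, Dhrs3 and Crabp2 lies below WT-RARX, Rdh10 stays between 6.77 and 9.02 CPM, and the RARX-DKO pair splits for Crabp1 and Crabp2. Crabp2 passed in no comparison, and how many of all genes lie apart likewise was not counted.

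Between the mutants, Stra6 was lower in Rxrα-KO than in Rarα-KO (log2 -0.95 ± 0.24, edgeR adjusted p = 0.0400), the only member of 6 that passed where 5.38% of all genes did. That call was lost without Rarα-KO replicate 1 (log2 -1.03, edgeR adjusted p = 0.0891), Rarα-KO replicate 2 (-0.86, 0.253) or Rxrα-KO replicate 1 (-0.60, 0.162), and with only these groups in the fit (-0.96, 0.0952). RARX-DKO against Rarα-KO gave 0 of 6 with edgeR, 1 at an unadjusted p under 0.05 and 0 under DESeq2, where 0.0122% of all genes passed. There 563 of 16445 genes were at an unadjusted p under 0.05. RARX-DKO against Rxrα-KO gave 0 of 6 with edgeR, 3 at an unadjusted p under 0.05 and 0 under DESeq2, where 3.5% of all genes passed and 3001 of 16445 were at an unadjusted p under 0.05. In that comparison Stra6 was at log2 0.61 ± 0.25, Dhrs3 at -0.62 ± 0.23 and Crabp1 at 1.76 ± 0.59 (edgeR adjusted p = 0.205, 0.162 and 0.154). Without RARX-DKO replicate 2, Crabp1 (log2 2.37, edgeR adjusted p = 0.00729) and Crabp2 (-3.16, 0.00493) passed there, and without Rxrα-KO replicate 2, Stra6 did (1.08, 0.04995). Set against the added log2 changes of Rarα-KO and Rxrα-KO, the change in RARX-DKO differed with a passed test for 0 of 6 members with edgeR, for 1 at an unadjusted p under 0.05 and for 0 under DESeq2, and 0.0% of all genes passed, with 1083 at an unadjusted p under 0.05. That 1 was Stra6, for which RARX-DKO stood 0.96 ± 0.34 above the added changes on the log2 scale (edgeR adjusted p = 0.614). For Dhrs3 this difference was -0.09 ± 0.32, with a 95% interval of -0.78 to 0.59.

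Of the other retinoid genes 33 were tested in the knockout table. Of these 0 were higher and 7 lower in RARX-DKO than in WT-RARX, 1 was higher and 6 lower in Rxrα-KO, and 0 were higher and 1 lower in Rarα-KO, with medians of -0.12, -0.30 and -0.05. Over all genes tested, 1.05% passed higher and 1.19% lower in RARX-DKO. These shares were 1.28% and 1.2% in Rxrα-KO, and 0.389% and 0.255% in Rarα-KO. The list includes the targeted genes Rara and Rxra. RARX-DKO was led by Cyp26a1 (log2 -4.34), the targeted Rara (-4.11), Hoxb1 (-3.75) and Cyp26b1 (-3.62). Those called in Rxrα-KO included Cyp26b1 (-4.44), Cyp26a1 (-2.80) and Cyp26c1 (-2.20), and in Rarα-KO the call was Rara (-4.42). Summed extraembryonic endoderm markers were 488 to 523 CPM in RARX-DKO, 779 to 871 CPM in Rxrα-KO and 495 to 554 CPM in Rarα-KO, against 575 to 616 CPM in WT-RARX, with 10 or 11 of 11 at 1 CPM or more. Stem cell markers summed to 6803 to 7549, 6217 to 6349 and 6736 to 8019.9 CPM in those mutants, against 5612 to 5699 CPM in WT-RARX. Neuroectoderm markers summed to 79.4 to 109, 70.0 to 89.8 and 66.9 to 70.5 CPM, against 55.6 to 55.8 CPM. Fibroblast markers summed to 24.3 to 38.2 CPM in RARX-DKO, 12.4 to 17.0 CPM in Rxrα-KO and 35.3 to 44.2 CPM in Rarα-KO, against 35.3 to 40.5 CPM in WT-RARX. Trophoblast markers summed to 62.9 to 79.1, 49.1 to 112 and 82.6 to 94.7 CPM in those mutants, against 101 to 106 CPM, and mesoderm markers to 11.8 to 14.5, 16.4 to 33.4 and 18.8 to 19.8 CPM, against 15.1 to 17.7 CPM. Of the fibroblast markers, Postn and Col3a1 were at 0 in all 8 libraries. Pdgfrb ranged from 7.42 to 33.8 CPM, Thy1 from 1.84 to 9.79 CPM and Col1a1 from 1.17 to 7.64 CPM. The part of all these markers in these results was not tested.

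Deletion of the Cyp26 enhancers was followed by rises in the synthesis genes Rdh10 and Aldh1a2 in both mutants, and by falls in Stra6 and Crabp2 in Cyp26-E1-KO. Of 7 tested members 4 passed in Cyp26-E1-KO, where 25.3% of all genes did, and 2 passed in Cyp26-E2-KO, where 17.5% of all genes did. The members' medians were -0.12 and 0.17, against -0.01 and 0.00 over all tested genes.

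Stra6 had 42.5, 33.0 and 39.0 CPM in Cyp26-E1-KO and 73.6, 72.5 and 71.6 CPM in Cyp26-E2-KO, against 66.6, 67.7 and 59.6 CPM in WT-Cyp26. It lay below the control in every Cyp26-E1-KO library and slightly above it in every Cyp26-E2-KO library. The fall in Cyp26-E1-KO was 0.76 ± 0.09 on the log2 scale (1.69-fold lower, edgeR adjusted p = 2.94e-05), and the value of 0.17 ± 0.09 in Cyp26-E2-KO did not pass (edgeR adjusted p = 0.227), except with only that mutant and its control in the fit (0.0238). Rdh10 had 14.6, 16.2 and 17.1 CPM in Cyp26-E1-KO and 17.0, 15.4 and 14.6 CPM in Cyp26-E2-KO, against 7.84, 8.65 and 7.78 CPM in WT-Cyp26. Each mutant library lies well above the control range. The fold was 1.98 in Cyp26-E1-KO (log2 0.98 ± 0.11, edgeR adjusted p = 2.42e-05) and 1.94 in Cyp26-E2-KO (log2 0.95 ± 0.11, edgeR adjusted p = 6.35e-05). Dhrs3 passed in neither mutant, with 50.4, 43.8 and 49.0 CPM in Cyp26-E1-KO and 51.0, 47.5 and 48.2 CPM in Cyp26-E2-KO, against 49.8, 53.0 and 52.4 CPM in WT-Cyp26. Its log2 fold changes of -0.12 ± 0.08 and -0.08 ± 0.08 did not pass, with 95% intervals of -0.28 to 0.05 in Cyp26-E1-KO and -0.24 to 0.08 in Cyp26-E2-KO.

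Aldh1a2 had 7.06, 4.59 and 6.16 CPM in Cyp26-E1-KO and 6.05, 5.29 and 5.996 CPM in Cyp26-E2-KO, against 4.12, 3.06 and 3.04 CPM in WT-Cyp26. Neither mutant overlaps the control, though Cyp26-E1-KO replicate 2 and WT-Cyp26 replicate 1 come close. The log2 fold change was 0.80 ± 0.19 in Cyp26-E1-KO (edgeR adjusted p = 0.00697) and 0.76 ± 0.19 in Cyp26-E2-KO (edgeR adjusted p = 0.0132). The Cyp26-E2-KO call was lost without Cyp26-E2-KO replicate 1 (log2 0.73, edgeR adjusted p = 0.0524) or 3 (0.74, 0.0541), and without WT-Cyp26 replicate 2 (0.70, 0.0602) or 3 (0.70, 0.0615). Aldh1a3 had 1.37, 0.46 and 1.55 CPM in Cyp26-E1-KO and 0.81, 0.93 and 0.47 CPM in Cyp26-E2-KO, against 0.52, 0.27 and 0.50 CPM in WT-Cyp26. Replicate 2 of Cyp26-E1-KO sits inside the control range while its fellows lie above it, and the log2 value of 1.39 ± 0.50 did not pass (edgeR adjusted p = 0.0553). Without that library it was 1.76 (edgeR adjusted p = 0.00340). The value in Cyp26-E2-KO was 0.77 ± 0.51 (edgeR adjusted p = 0.347). Aldh1a1 held 2 to 10 reads in Cyp26-E1-KO, 4 to 8 in Cyp26-E2-KO and 0 to 8 in WT-Cyp26, and was not tested.

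Crabp2 had 7.68, 3.18 and 6.94 CPM in Cyp26-E1-KO and 10.4, 9.08 and 10.8 CPM in Cyp26-E2-KO, against 11.8, 10.9 and 10.8 CPM in WT-Cyp26. Cyp26-E1-KO lies below the control in each library, with replicate 2 lowest, and fell by 0.91 ± 0.24 on the log2 scale (edgeR adjusted p = 0.0131). Without replicate 2 the fall was smaller, at -0.61, and the call was kept, as it was without any other library. Cyp26-E2-KO was at -0.15 ± 0.23 (95% interval -0.64 to 0.35, edgeR adjusted p = 0.731). Crabp1 had 2.80, 0.64 and 2.89 CPM in Cyp26-E1-KO and 4.10, 2.59 and 3.07 CPM in Cyp26-E2-KO, against 6.09, 4.29 and 3.87 CPM in WT-Cyp26. The Cyp26-E1-KO libraries lie below the control, and the log2 value of -1.17 ± 0.42 did not pass (edgeR adjusted p = 0.0635), but without the low replicate 2 it was -0.74 and passed (edgeR adjusted p = 0.0156). In Cyp26-E2-KO it was -0.54 ± 0.40 (edgeR adjusted p = 0.414), and 0.0474 with only that mutant and its control in the fit. Leaving out Cyp26-E1-KO replicate 2 thus brought the count of called members in Cyp26-E1-KO to 6. All genes called there rose as well, from 4741 of 18768 to 6217 of 19368. With all libraries, Aldh1a3 and Crabp1 also passed in Cyp26-E1-KO under DESeq2 (adjusted p = 0.0468 and 0.0170) and with no filter on low counts (edgeR adjusted p = 0.0243 and 1.21e-05). These alternatives called 4939 of 33403 and 5058 of 33408 genes. The DESeq2 total counts genes with an unadjusted p, whether or not DESeq2 gave an adjusted one.

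**Figure D4:**
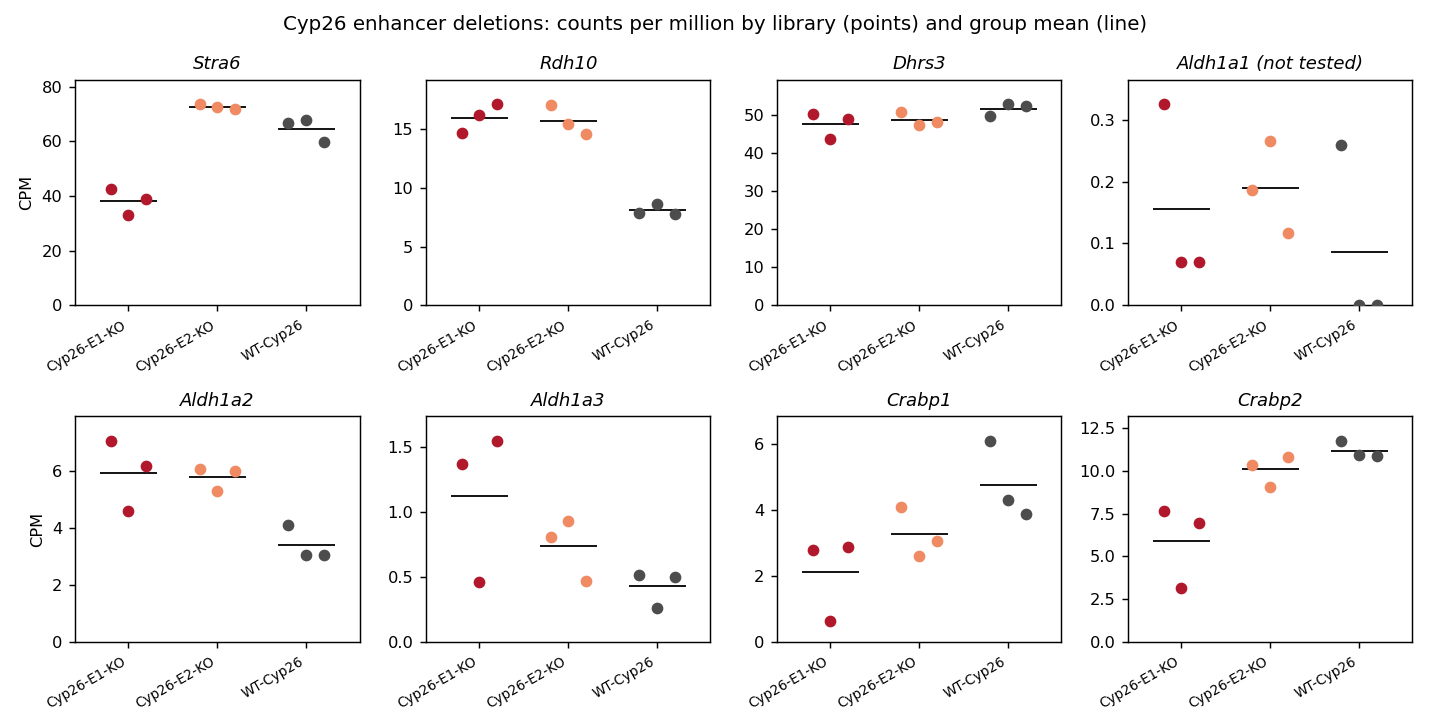
CPM of the 8 genes in each library of the enhancer table (points, n = 3 per group) with the group mean (line), linear axes that start at 0. Rdh10 and Aldh1a2 lie above WT-Cyp26 in both mutants, Stra6 and Crabp2 lie below it in Cyp26-E1-KO.

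Between the enhancer mutants, Stra6 was 1.90-fold higher in Cyp26-E2-KO than in Cyp26-E1-KO (log2 0.93 ± 0.09, edgeR adjusted p = 4.82e-05), and it was the only one of 7 that passed where 4.49% of all genes did. Crabp2 was at 0.76 ± 0.24 (edgeR adjusted p = 0.0934), and passed without Cyp26-E1-KO replicate 1 (log2 1.00, edgeR adjusted p = 0.0356) or replicate 2 (0.47, 0.0249). For Rdh10 and Aldh1a2, which were higher in each mutant, the mutants differed by -0.03 ± 0.11 (95% interval -0.27 to 0.21) and -0.04 ± 0.19 (95% interval -0.44 to 0.36). The comparisons with WT-Cyp26 share the same control libraries, so likeness of the mutants there is not independent.

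**Figure D5:**
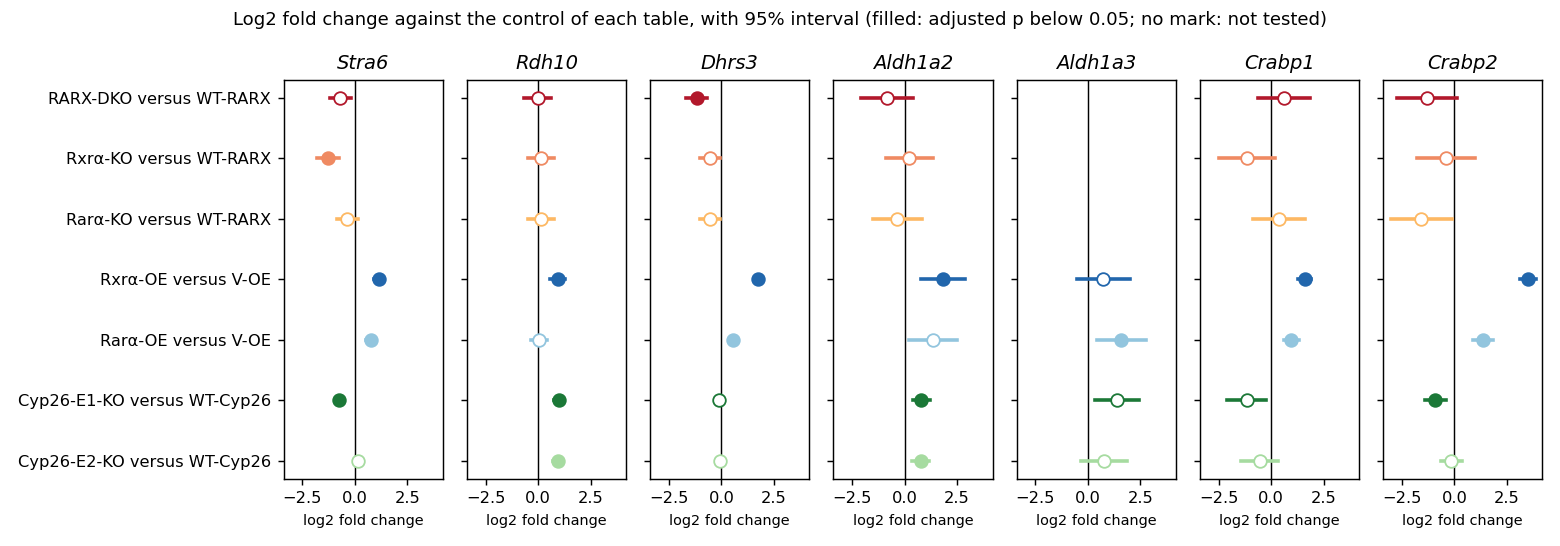
Log2 fold change of the 7 members tested in any table against the control of the same table (x axis, 95% interval as a line), filled where the adjusted p was below 0.05. Rdh10 is to the right in Rxrα-OE (0.94), Cyp26-E1-KO (0.98) and Cyp26-E2-KO (0.95), and Crabp2 spans from -1.58 in Rarα-KO to 3.51 in Rxrα-OE.

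Of the other retinoid genes 37 were tested in the enhancer table. In Cyp26-E1-KO 4 were higher and 11 lower than in WT-Cyp26, led by Cyp26c1 (log2 -3.36), Cyp26a1 (-2.93), Hoxb1 (-1.54) and the retinol dehydrogenase Rdh1 (-1.53). In Cyp26-E2-KO 4 were higher and 5 lower, among them Cyp26b1 (-2.18), the aldo-keto reductase Akr1b8 (0.86) and Scarb1 (-0.75), a lipoprotein receptor that also takes up carotenoids. Medians over the tested genes of the list were -0.12 and 0.03. Over all genes tested, 13.1% passed higher and 12.1% lower in Cyp26-E1-KO, and 9.28% and 8.2% in Cyp26-E2-KO. Between the mutants 5 were higher and 2 lower in Cyp26-E2-KO, led by Cyp26c1 (3.04), Cyp26a1 (2.94), Cyp26b1 (-1.86) and Rdh1 (1.25). Extraembryonic endoderm markers summed to 1022 to 1063 CPM in Cyp26-E1-KO and 1089 to 1115 CPM in Cyp26-E2-KO, against 844 to 874 CPM in WT-Cyp26, with 11 of 11 at 1 CPM or more in each group. Stem cell markers summed to 2309.6 to 3187 and 2739.7 to 2900.5 CPM, against 3216 to 3321 CPM, mesoderm markers to 52.2 to 55.9 and 46.5 to 51.0 CPM, against 25.0 to 28.7 CPM, and trophoblast markers to 105 to 107 and 76.6 to 90.5 CPM, against 74.4 to 78.6 CPM. Neuroectoderm markers lay between 94.1 and 128 CPM and fibroblast markers between 21.5 and 29.1 CPM, with Lum at 0 in 8 of 9 libraries. Of the fibroblast markers, Pdgfrb ranged from 16.9 to 24.1 CPM. The part of all these markers in the changes of the retinoid genes was not tested.

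Within a table the order of group means was as follows. Stra6 ran from Rxrα-OE (36.1 CPM) over Rarα-OE (28.0 CPM) to V-OE (16.3 CPM), and each step passed. Dhrs3, Crabp1 and Crabp2 had the same order, again with each step called. Rdh10 separated Rxrα-OE (14.8 CPM) from Rarα-OE (7.87 CPM) and V-OE (7.76 CPM), which did not differ beyond their spread. In the knockout table no step between neighbouring groups passed for any of the 6 tested members; the calls named above are between groups that are not neighbours in that order. In the enhancer table a step passed for Stra6 between Cyp26-E1-KO (38.2 CPM) and WT-Cyp26 (64.7 CPM), and for Rdh10 and Aldh1a2 between Cyp26-E2-KO (15.7 and 5.78 CPM) and WT-Cyp26 (8.09 and 3.40 CPM). No step between neighbours passed there for Dhrs3, Aldh1a3, Crabp1 and Crabp2. For Crabp2, Cyp26-E2-KO and Cyp26-E1-KO did not overlap (log2 0.76, 95% interval 0.25 to 1.28, edgeR adjusted p = 0.0934).

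Genes whose log2 CPM moved most like each of the 6 members tested in all 3 tables over the 23 libraries were sought among 11942 genes, each centred within its table. Points share libraries, group differences and depth, so the values are a description. Crabp2 was most like Mdk (Pearson's r = 0.93), Ap3b2 (0.92) and Nfkbia (0.92). Dhrs3 was most like Suox (0.94), Dsc2 (0.94) and Gdpd5 (0.94), and Rdh10 like Cdo1 (0.93), Dyrk1b (0.92) and Plk2 (0.91). Crabp1 was most like Flot1 (0.90), Rassf7 (0.90) and Qsox1 (0.89). For Aldh1a2 these were Vps51 (0.88), Shkbp1 (0.85) and Kdelr2 (0.85), and for Stra6 they were Reep5, Gm14286 and Serping1 (0.86, 0.86 and 0.85). None of the 18 is among the retinoid genes listed here.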

How the data were processed

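RNA-seq libraries of RA-treated E14 cells were deposited as 3 tables of raw read counts per gene. Per the submitters' processing notes, HISAT2 2.1.0, HTSeq 0.9.1 and the build mm10 were used; whether counting used strand is not given in the sources used here. The 4C and ChIP libraries were not analysed here. From the deposited counts, edgeR 4.0.16 (R 4.3.3) fitted all groups of a table together, with genes kept by filterByExpr (minimum count 10), TMM scaling, a robust quasi-likelihood test and Benjamini-Hochberg adjustment over all genes, with a threshold of 0.05. Tested genes numbered 16445, 16914 and 18768 in the knockout, overexpression and enhancer tables. CPM uses TMM-scaled library sizes. SE is the log2 fold change divided by the root of F. The fit was also run on counts simulated from its own estimates of spread, with no deviating library. That run cannot show whether the calls hold in these data.

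All 8 members are named. Of the 49 other retinoid genes up to 4 called per comparison, those of largest fold change, are named, except for some that are not reported here, and for each of the 6 members tested in all 3 tables the 3 genes of highest Pearson's r, among genes with a mean log2 CPM of 1 or more in every table. Members and lists were chosen with earlier results of these data known. Alternatives were DESeq2 size factors, library totals, no filter, the DESeq2 1.42.0 test, fitting only the groups compared, a replicate block and leaving out each replicate. A left-out fit with 1 library in a group assumes that it varies like the others. Counting floors (3 reads) cover counting error only. Same-numbered replicates were not treated as pairs. Where groups are said not to overlap, the share of all genes that lie apart likewise was not counted.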

Additional observations from a re-analysis of the deposited data

How the results depend on the processing

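No called fold change of the 8 genes changed sign under any alternative run. Of 26 calls, 19 were kept under every alternative. With no filter on low counts, members called went to 1 in Rarα-KO, 2 in Rxrα-KO and 3 in RARX-DKO against WT-RARX, to 3 in Rxrα-KO against Rarα-KO, to 1 in RARX-DKO against Rxrα-KO and to 2 in Cyp26-E2-KO against Cyp26-E1-KO. Over all genes, calls in those comparisons then numbered 551, 1084, 981, 1840 and 1366 of 29832, and 1384 of 33408. With the filter they numbered 106, 407, 368, 885 and 575 of 16445, and 842 of 18768. With only the groups compared in the fit, members called went to 1 in Rarα-KO, 0 in Rxrα-KO against Rarα-KO and 4 in Cyp26-E2-KO. Calls over all genes were then 588 of 16206, 603 of 15694 and 5731 of 18108 in the same order. With all groups in the fit they were 106 and 885 of 16445, and 3280 of 18768. The DESeq2 test gave 2 members in Cyp26-E2-KO against Cyp26-E1-KO, where it called 1289 of 33403 genes. All DESeq2 totals given here count genes with an unadjusted p, whether or not DESeq2 gave an adjusted one. Genes without an adjusted p could not be called, so these shares are not like those of edgeR. Cyp26-E1-KO had 6 in place of 4 both under DESeq2 and with no filter, Rarα-OE had 4 in place of 5 with no filter, and 4 under DESeq2, which gave no adjusted p for Aldh1a3. Over all genes, Cyp26-E1-KO had 4939 of 33403 calls under DESeq2 and 5058 of 33408 with no filter, in place of 4741 of 18768. Rarα-OE had 4403 of 30272 with no filter and 2416 of 30272 under DESeq2, in place of 4829 of 16914. Under DESeq2 Rxrα-OE had 5 in place of 6 and Rxrα-OE against Rarα-OE 4 in place of 5. All genes called there were 7410 and 5013 of 30272, in place of 10178 and 7979 of 16914. The cause of these changes was not tested. Leaving out 1 library gave 0 to 1 in Rxrα-KO, 0 to 1 in RARX-DKO, 0 to 1 in Rxrα-KO against Rarα-KO, 0 to 2 in RARX-DKO against Rxrα-KO, 1 to 2 in Cyp26-E2-KO and 1 to 2 in Cyp26-E2-KO against Cyp26-E1-KO. Deviations of same-numbered libraries correlated at -0.214 to 0.121 in the knockout, -0.014 to 0.007 in the overexpression and -0.056 to 0.107 in the enhancer table. The labels do not say whether a number marks a shared batch, which these values do not settle. A replicate block gave 2 called members in Cyp26-E2-KO against Cyp26-E1-KO and 5 in Cyp26-E1-KO, and pairing RARX-DKO crosswise with Rarα-KO gave 0. Over all genes these fits called 861 and 4769 of 18768, and 9 of 16445. Scaling by library totals put the median of all genes at -0.10 in place of 0.01 in Rxrα-KO against Rarα-KO, where 254 genes were then higher and 731 lower in place of 360 and 525, and at 0.10 in place of 0.00 in Rxrα-OE against V-OE. Of the other retinoid genes, DESeq2 called 6 in place of 1 in RARX-DKO against Rarα-KO. Under Spearman's rho, 0 to 2 of the 3 most alike genes of each member were shared. The spacing of 5 alone gave 0 matched windows. Depth limits Aldh1a1, Aldh1a2 and Aldh1a3 most.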
